A study of Homo sapiens with 36 samples.

Results

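The Mir-28 family was represented by 4 mature miRNAs among the 135 that were listed: the 5p and the 3p arm of the hairpin Mir-28-P1 and the 5p and the 3p arm of its paralogue Mir-28-P2. They were chosen by name, as the rows that begin with Hsa-Mir-28- and do not end in the asterisk by which MirGeneDB marks a passenger strand. The family had 0 rows with an asterisk, so that neither arm of either hairpin is annotated as a passenger. The arms come from HEK293T, an established and easily transfected human embryonic kidney cell line, which received a vector for Flag/HA-tagged AGO2 together with pEGFP-C1 and was lysed on the next day. The tagged AGO2 was WT-AGO2 or the variant F182del, N359H, G604R or D619N, each named after its changed amino acid, and the Flag/HA-empty vector served as control. A sample of each cleared lysate was kept as input, and the rest was incubated with beads that carry an antibody against HA (IP), which pulls down the tagged AGO2 with its small RNAs. These 12 conditions had 3 replicates each, or 36 libraries. All cells also have their own AGO2 without a tag, which adds to the input, and the tagged proteins were made from transfected vectors and not from the gene of the cells.

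A miRNA hairpin is cut into a short duplex of its 5p and 3p arm, of which Argonaute proteins such as AGO2 keep a single strand, the guide, and discard the other, the passenger. The guide finds its target mRNAs mainly by pairing of its seed, the bases near its 5′ end, so that the arms of a hairpin reach different targets. Where both arms are found on Argonaute in appreciable amounts, as annotated for the Mir-28 family, the share of each arm describes which strand was kept.

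MIR28, the gene of the Mir-28-P1 hairpin, lies at chr3:188688781-188688866 on the plus strand of GRCh38, within an intron of LPP, and overlaps 0 exons of this host gene in the GENCODE annotation. Of the arms of Mir-28-P1, only the mature 3p arm, which was called in IP of D619N, had an entry in the reference used and is shown. Its sequence is that of RefSeq for GRCh38.p14, at chr3:188688834-188688855 on the plus strand, with the seed, bases 2 to 8, in capitals. Of the 2351 distinct mature sequences in that RefSeq table, 1 has this seed. The other arms are named only.
hsa-miR-28-3p: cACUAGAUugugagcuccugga

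The deposited RPM relate the reads of a miRNA to all reads of its library. Read numbers were inferred from the RPM, since all values of a library were whole multiples of a common step, the RPM of 1 read. Total reads ranged from 16636 to 754009 in IP and from 9395 to 4162450 in the input. Mature miRNA reads ranged from 1150 to 30793 in IP of the 5 AGO2 groups, from 174 to 202 in IP of the empty vector and from 446 to 12040 in the input. CPM below relate the reads of an arm to the mature miRNA reads of its library. Of the 144 values of the Mir-28 arms, 32 were at 0, 1 was of 1 read and 10 were of 2 reads. The authors do not explain how a minimum was applied, and a value of 0 is read here only as fewer than 3 reads, the detection limit used. None of the 4 arms had the same reads as another miRNA in all libraries, and 0 pairs of libraries were identical. The labels do not say whether replicates are separate transfections, and the p-values then measure only the spread between these libraries.

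Together the 4 arms took 2.0% to 3.88% of the mature miRNA reads in IP of the 5 AGO2 groups (median 2.81%, 15 libraries). In the inputs of these groups the family stood at 1.75% to 3.36% (median 2.37%). The arms of Mir-28-P2 held most of these reads, and Mir-28-P1_5p was by far the scarcest. In IP of WT-AGO2, Mir-28-P2_3p was at 12924 CPM ± 1492 (SD, n = 3), Mir-28-P2_5p at 9858 CPM ± 914, Mir-28-P1_3p at 2634 CPM ± 152 and Mir-28-P1_5p at 341 CPM ± 120.

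Mir-28-P1_3p had a higher mean level in IP than in the input for WT-AGO2 and each of the 4 variants. Its mean was highest in IP of D619N (6257 CPM ± 1778, SD, n = 3 here and for all means of this kind) and of F182del (4547 ± 1571). IP of the empty vector followed with 3831 ± 6636, a mean that rests on 2 reads in 1 of its libraries. IP of G604R was at 3228 ± 2053 and that of WT-AGO2 at 2634 ± 152. Then came the inputs of D619N (2491 ± 76.3) and F182del (2071 ± 1046), and IP of N359H (1950 ± 1894). The lowest levels were in the inputs of WT-AGO2 (1542 ± 477), N359H (1424 ± 568), the empty vector (1086 ± 413) and G604R (735 ± 1274). Each condition overlapped with the next in this order.

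Mir-28-P1_5p had its highest mean level in IP of F182del, where it was at 1243.5, 2170 and 930.4 CPM, from 11, 7 and 17 reads (mean 1448 ± 645). As listed, all 3 of these libraries lay above every library of the condition next in order, the input of WT-AGO2 (385 ± 366). The lowest of them, at 930.4 CPM, is under the limit of 3 reads in replicate 3 of that input (1092.5 CPM), which had 2 reads. IP of WT-AGO2 was at 227, 467 and 328 CPM, from 7, 3 and 2 reads. Below it were the inputs of N359H (143 ± 247) and F182del (121 ± 210) and the IP of N359H (106 ± 184) and D619N (96.7 ± 167), each with reads in 1 of 3 libraries. G604R and the empty vector had the arm at 0 in both fractions, as had the input of D619N. In several of these libraries a level as in F182del would not have been detectable, since 3 reads correspond to 808 to 1648 CPM in IP of G604R, 14852 to 17241 CPM in IP of the empty vector, 1106 to 6726 CPM in the input of G604R and 917 to 3672 CPM in that of D619N.

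The arms of Mir-28-P2 had reads in all libraries of the 5 AGO2 groups, and their neighbours in order overlapped throughout. Mir-28-P2_5p had its highest mean in IP of G604R (14139 CPM ± 695), followed by the inputs of G604R (14112 ± 9138), N359H (12060.2 ± 2698), the empty vector (12022 ± 2640.4), D619N (11415 ± 2779) and WT-AGO2 (11020 ± 2947). IP of F182del (10131 ± 2088) and WT-AGO2 (9858 ± 914), the input of F182del (9668 ± 3421) and IP of N359H (9155 ± 398) and the empty vector (9047 ± 8652) came next. The lowest level was in IP of D619N (5716 ± 2284). Mir-28-P2_3p was highest in IP of G604R (19234 ± 4780.4), D619N (17999.8 ± 5650.3), F182del (13826 ± 515) and WT-AGO2 (12924 ± 1492). The inputs of D619N (12759 ± 781), the empty vector (12375 ± 3686), F182del (11627 ± 3269.6), G604R (11582 ± 2527) and WT-AGO2 (10407 ± 3974) lay below these. IP of N359H (10181 ± 977), the input of N359H (9711 ± 1076) and IP of the empty vector (3300.3 ± 5716) ended the order. In IP of D619N, Mir-28-P2_5p thus had its lowest mean while Mir-28-P2_3p was near the top of its order.

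**Figure D1:**
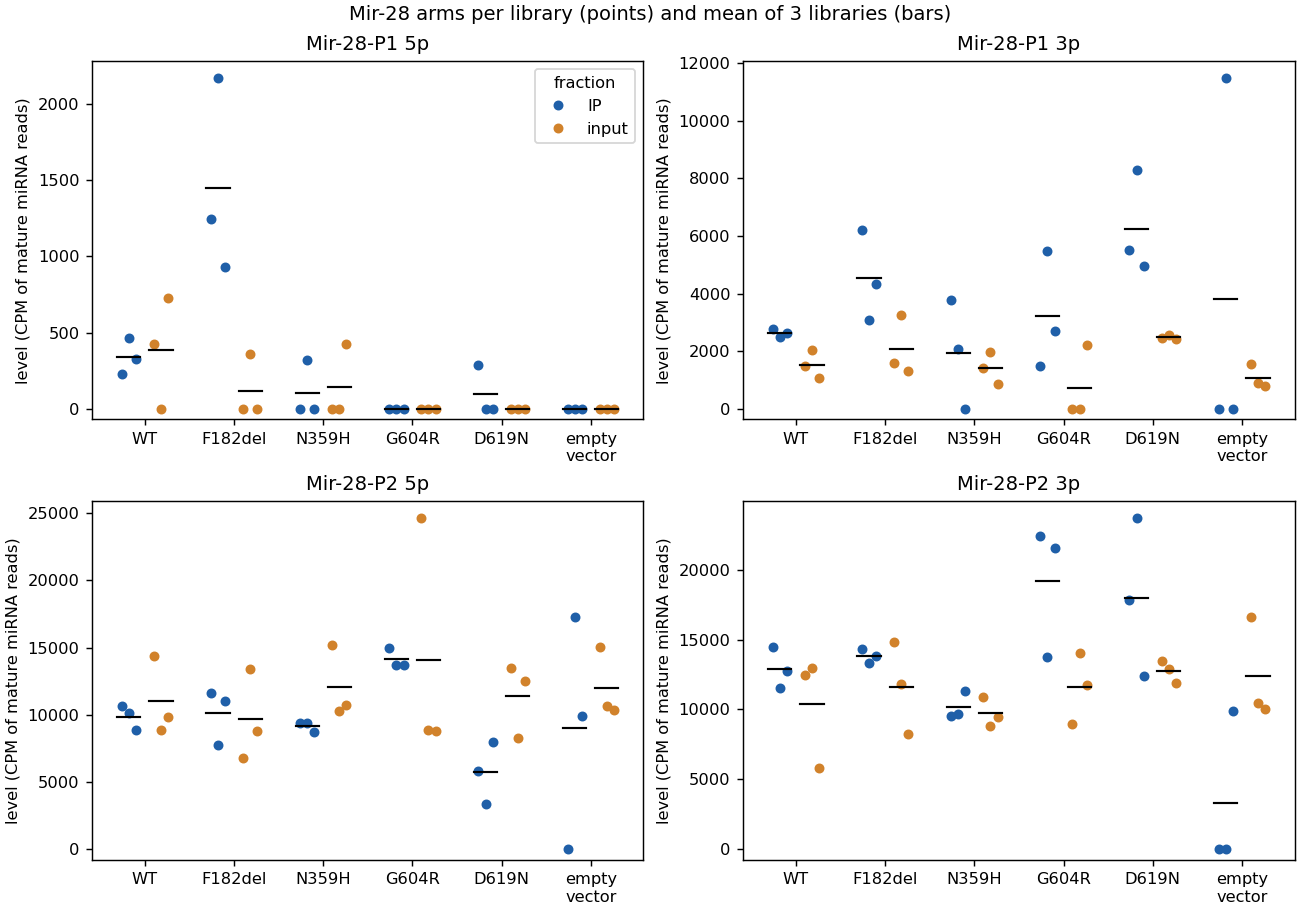
Level of the 4 Mir-28 arms in each library, in CPM of mature miRNA reads (vertical axis), by construct (horizontal axis) and fraction (colour), with the mean of 3 libraries as a bar. Mir-28-P1_5p has its highest points in IP of F182del (930.4 to 2170 CPM), with many libraries at 0 elsewhere whose detection limits reach or exceed this level, and Mir-28-P1_3p is highest on average in IP of D619N (6257 CPM).

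The empty vector gives the background of the pulldown. In RPM of all reads, with zeros taken as listed, each of the 4 arms was higher in all IP libraries of WT-AGO2 than in all of the empty vector, which held for 78.5% of the 121 miRNAs compared. Mir-28-P2_3p was at 866 RPM ± 667 (SD, n = 3) against 23.8 ± 41.2, Mir-28-P2_5p at 666 ± 486 against 44.6 ± 38.9 and Mir-28-P1_3p at 174 ± 125 against 13.9 ± 24.0. Each arm had p = 0.1 (exact permutation test, two-sided), which is the smallest p for 3 libraries against 3. In the empty vector libraries 3 reads correspond to 166, 62.4 and 107 RPM. The Mir-28-P2 arms exceeded all these limits in each WT library, at 197 RPM or more. Mir-28-P1_3p, at 307, 155 and 58.4 RPM in WT-AGO2, did so in replicate 1 alone. Mir-28-P1_5p, at 20.5 RPM ± 11.6 in WT-AGO2 and listed at 0 in the empty vector, lay under all of them, so that its difference was not detectable at this depth. Relative to mature miRNA reads, where the empty vector libraries had only 0 to 5 reads of the family, Mir-28-P2_5p and Mir-28-P1_3p overlapped between the groups, and 3 reads correspond to 14852 CPM or more, above the WT-AGO2 libraries of every arm.

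The arms of Mir-28-P1 were then set against each other by the share of the 5p arm among the reads of both arms. In IP of WT-AGO2 the 3p arm prevailed, with a 5p share of 7.53% (7 of 93 reads), 15.8% (3 of 19) and 11.1% (2 of 18), or 11.5% ± 4.14 (SD, n = 3). For F182del the share was 16.7% (11 of 66), 41.2% (7 of 17) and 17.7% (17 of 96), or 25.2% ± 13.9. All F182del libraries lay above all WT libraries, by 13.7 percentage points on average, and 27.3% of the 22 hairpins compared had shares apart from WT-AGO2 in either direction. The exact permutation test (two-sided) gave p = 0.1, the smallest possible here, and an adjusted p of 0.2 over 8 comparisons (4 variants, 2 hairpins). Replicate 2 carried much of the size, and without it the difference was 5.71 points. Over summed reads the share was 19.6% in F182del (95% Wilson interval 14.4% to 26.0%) and 9.23% in WT-AGO2 (5.36% to 15.4%), and these intervals overlap. Such intervals, and the limits given for counts of 0, hold for the error of counting alone, because amplified reads that carry no molecular identifier are not separate molecules.

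In the other variants the 5p arm of Mir-28-P1 had 0 to 2 reads per IP library, too few to tell its share from that of WT-AGO2. G604R had 0 of 24 reads, which allows a share of up to 12.5%, above the 9.23% of WT-AGO2. At the summed WT level of 277 CPM, the G604R libraries would hold 0.741, 0.504 and 1.03 reads of Mir-28-P1_5p. Of the libraries with reads of this arm, replicate 1 of D619N had 2 reads against 1.91 at the WT level, and replicate 2 of N359H had 2 against 1.74. D619N had 2 of 40, 0 of 22 and 0 of 10 reads, or 2.78% over summed reads (0.765% to 9.57%), which overlaps the WT interval. N359H had 0 of 25 and 2 of 15 reads, and its replicate 3, with 1150 mature miRNA reads in all, had 0 reads of either arm. The differences of the mean shares from WT-AGO2 were -11.5 points for G604R, -9.81 points for D619N (two-sided exact permutation test, p = 0.1, adjusted p = 0.2 for each) and -4.81 points for N359H (p = 0.6, adjusted p = 0.8, 2 libraries against 3, exact permutation test). The libraries of G604R and D619N lay apart from those of WT-AGO2, as they did for 22.7% of 22 and 47.6% of 21 hairpins, and those of N359H did not (9.52% of 21 hairpins). The difference of N359H turned to 1.86 points without its replicate 1.

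The inputs held too few reads of Mir-28-P1 to give a 5p share with precision. Over summed reads it was 6 of 32 reads in WT-AGO2 (18.8%, 95% Wilson interval 8.89% to 35.3%), 2 of 30 in F182del (6.67%, 1.85% to 21.3%) and 1 of 30 in N359H (3.33%, 0.591% to 16.7%). It was 0 of 15 reads in D619N and 0 of 13 in the empty vector, which allow up to 20% and 23.1%, and 0 of only 3 reads in G604R. In F182del the mean share was 21.9 points higher in IP than in the input (two-sided exact permutation test, p = 0.1, adjusted p = 0.5 over 10 comparisons of IP with input). None of these comparisons of shares paired the IP and input of a lysate. In 2 inputs of F182del the share was 0 of 5 reads. The limit of 3 reads allows up to 60% there and the Wilson interval up to 43.4%, both more than any IP library showed. For WT-AGO2 the difference between IP and input was -9.26 points, with overlapping libraries (p = 0.6, adjusted p = 0.857, exact permutation test).

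Mir-28-P2 had more even arms than Mir-28-P1, and its mean 5p share in IP was lowest in D619N. The 5p share in IP was 42.3%, 46.8% and 40.9% in WT-AGO2 (43.3% ± 3.06, SD, n = 3, from 1044 reads). The share was 42.0% ± 4.51 in F182del, 47.4% ± 3.42 in N359H and 43.0% ± 6.11 in G604R, all overlapping with WT-AGO2. In D619N it was 24.5%, 12.5% and 39.0% (25.4% ± 13.3, from 276 reads), all below WT-AGO2 and 18.0 points lower on average (two-sided exact permutation test, p = 0.1, adjusted p = 0.2). Shares apart from WT-AGO2 were common in D619N, at the 47.6% of hairpins given above. Over summed reads, the interval of D619N (18.9% to 28.9%) and that of WT-AGO2 (39.8% to 45.7%) do not overlap, but the D619N libraries differed among themselves by more than this interval is wide. In the inputs the mean share ranged from 45.4% in F182del to 55.1% in N359H, and D619N was at 46.8% ± 6.73. In D619N the difference between IP and input was -21.4 points, and replicate 3 of IP and replicate 2 of the input both stood at 39.0% (two-sided exact permutation test, p = 0.2, adjusted p = 0.667).

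**Figure D2:**
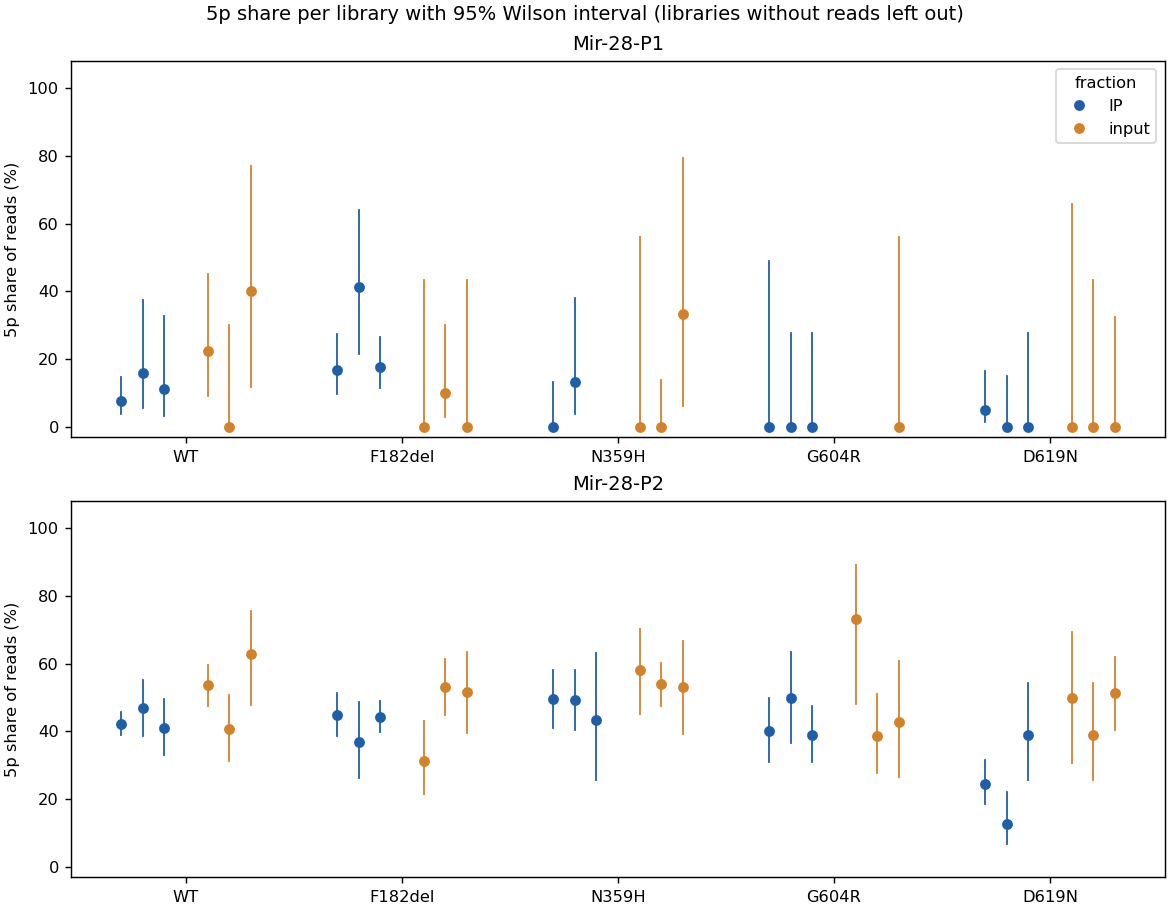
5p share of the reads of both arms (vertical axis, %) of Mir-28-P1 and Mir-28-P2 in each library with reads, by construct and fraction, with 95% Wilson intervals as lines. In IP, all F182del libraries lie above those of WT-AGO2 for Mir-28-P1 (16.7% or more against 15.8% or less), and all D619N libraries lie below them for Mir-28-P2 (39.0% or less against 40.9% or more).

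As a test across hairpins, the log2 ratio of 5p over 3p CPM, each plus 1 CPM, was fitted with limma and called at an adjusted p below 0.05. For Mir-28-P1 in IP the difference from WT-AGO2 was 1.32 in F182del (SE 0.80, adjusted p = 0.474), -1.85 in N359H (SE 3.25, adjusted p = 0.732) and -6.84 in D619N (SE 2.66, adjusted p = 0.33). G604R was called (-8.45, SE 0.88, adjusted p = 0.00193). Its 5p arm was at 0 in all libraries and met the minimum for testing through WT-AGO2 alone. The size of this value is therefore set by the pseudocount. With a pseudocount of 100 CPM it was -2.20 (adjusted p = 0.159) and with 0.5 reads -1.16 (adjusted p = 0.471), and neither passed. D619N, with 2 of 3 libraries at 0 for the 5p arm, moved likewise to -2.63 and -1.78, and it passed without its replicate 1, which left this arm at 0 (-9.64, adjusted p = 0.00536). The ratio of N359H changed sign, to 0.12 and 0.13 under these pseudocounts, and its replicate 3, with no reads of either arm, enters as a ratio of 1. Called in IP were 0% of 23 hairpins for F182del, 4.76% of 21 for N359H, 9.09% of 22 for G604R and 4.76% of 21 for D619N.

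**Figure D3:**
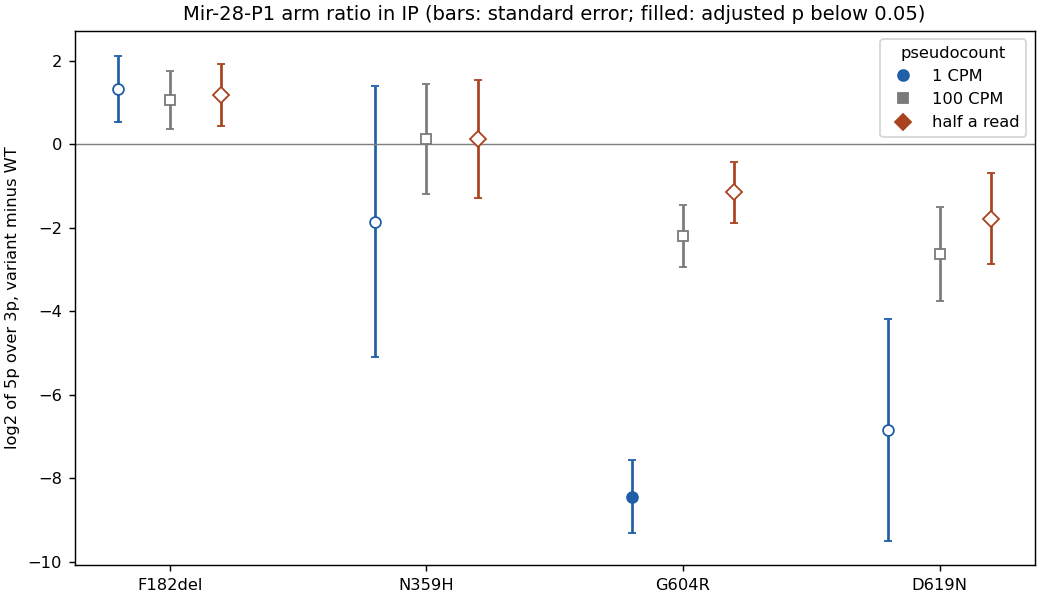
Difference from WT-AGO2 of the log2 ratio of 5p over 3p of Mir-28-P1 in IP (vertical axis), with its standard error, for each variant under 3 pseudocounts (colour and shape). The G604R difference is -8.45 with 1 CPM and -1.16 with 0.5 reads, while that of F182del stays between 1.06 and 1.32.

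No arm ratio of Mir-28-P2 was called in IP, the lowest being that of D619N (-1.30, SE 1.37, adjusted p = 0.532). In the inputs neither hairpin was called against WT-AGO2, where 7.14% of 14 hairpins were called for F182del and 0% of 11 or 12 for the other variants. Mir-28-P1 of D619N passed there without WT replicate 2, which had 0 reads of the 5p arm (-10.1, adjusted p = 0.00523). All D619N inputs had 0 reads of this arm, so that the size is set by the pseudocount: with all libraries the value was -6.82, and -1.15 with 0.5 reads. Between IP and input, the ratio of Mir-28-P1 was 6.38 higher in IP of F182del (SE 2.28, adjusted p = 0.118) and 1.45 higher in IP of WT-AGO2 (SE 2.96, adjusted p = 0.714). The direction in WT-AGO2 is not settled, since its value was -0.49 with 100 CPM and -0.69 with 0.5 reads. It was -1.81 without WT input replicate 2, which had 0 reads of the 5p arm. Without replicate 2, the only F182del input with reads of the 5p arm, the F182del value was 8.83 and passed (adjusted p = 0.0037). Both F182del values depend on the pseudocount, since the other F182del inputs had 0 reads of this arm. With all libraries the F182del value was 1.99 with 100 CPM (adjusted p = 0.0817) and 1.62 with 0.5 reads (adjusted p = 0.126). Mir-28-P2 was called in none of the 5 constructs, with log2 differences from -1.50 in D619N to -0.19 in F182del. The background of these calls was 10% of 20 hairpins for WT-AGO2, 13.6% of 22 for F182del, 0% of 15 for N359H, 23.1% of 13 for G604R and 7.69% of 13 for D619N.

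The level of each arm in IP was compared with WT-AGO2 by limma, on RPM scaled by median-of-ratios factors and taken as log2(RPM + 1). An arm was called where its adjusted p lay below 0.05 and its absolute log2 fold change above 1. In D619N, 1 of the 4 arms was called, Mir-28-P1_3p, which rose. Its libraries were at 5511, 8286 and 4973 CPM in D619N against 2793, 2489 and 2621 CPM in WT-AGO2. The log2 fold change was 1.25 (SE 0.28, adjusted p = 0.0279), against a median of -1.18 over the 123 miRNAs tested, of which 14.6% were called. Relative to that median it was 2.43 higher. On RPM as deposited it was 2.40 above a median of -0.60, and the fold change of 1.80 was not called (adjusted p = 0.297). These medians include miRNAs at 0 in D619N libraries, which listed 105, 80 and 77 miRNAs against 128, 111 and 118 in WT-AGO2. Whether depth lowered the medians was not tested. The call was also lost without WT replicate 1 (adjusted p = 0.0721) or 2 (0.0665) and without D619N replicate 1 (0.068) or 2 (0.0799), with log2 fold changes of 1.11 to 1.31.

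The other arms did not pass in D619N. Mir-28-P2_5p had a log2 fold change of -0.82 (SE 0.32, adjusted p = 0.123), Mir-28-P2_3p of 0.48 (SE 0.30, adjusted p = 0.307) and Mir-28-P1_5p of -2.98 (SE 1.45, adjusted p = 0.182). The last passed without D619N replicate 1, the only D619N library in IP with reads of this arm (-4.32, adjusted p = 0.0128), and the size of both values depends on the pseudocount.

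For G604R, 1 of the 4 arms was called, Mir-28-P1_5p, beside 4.88% of 123 miRNAs. This arm met the minimum for testing through its WT-AGO2 libraries alone. Its G604R libraries were at 0, where the detection limit of 3 reads is 808 to 1648 CPM, above all WT-AGO2 libraries (227 to 467 CPM). The fitted log2 fold change of -3.64 (SE 0.74, adjusted p = 0.0295) depends on the pseudocount, and no fold is given since the WT level itself would not have been detectable. With a pseudocount of 10 RPM it was -1.11 (adjusted p = 0.204). The call was lost with the replicate block, here a match by replicate number only (adjusted p = 0.154), and without G604R replicate 1 (0.0527) or 2 (0.225). The 3 other arms had log2 fold changes of -0.06 to 0.39 in G604R, with adjusted p of 0.397 to 0.953, against a median of -0.34 over all miRNAs.

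No arm was called for F182del (6.02% of 133 miRNAs) or N359H (0% of 123, and 6 miRNAs at an unadjusted p below 0.05 in limma). In F182del, Mir-28-P1_5p had the largest log2 fold change of the family (2.03, SE 0.78, adjusted p = 0.182), beside 0.78 for Mir-28-P1_3p (SE 0.35, adjusted p = 0.216). The latter was -0.02 on RPM as deposited, where the median of all miRNAs was -0.78. In N359H the arms of Mir-28-P1 were at -2.80 and -2.26 with standard errors of 1.79 and 1.58, with replicate 3 at 0 for both, while Mir-28-P2_5p and Mir-28-P2_3p were at -0.03 and -0.27.

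In the inputs none of the 4 arms was called for any variant or the empty vector, and limma called 0% of the 114, 106, 106, 105 and 105 miRNAs tested for F182del, N359H, G604R, D619N and the empty vector. At an unadjusted p below 0.05, 9, 2, 11, 4 and 3 miRNAs passed in these comparisons. The Mir-28-P2 arms had log2 fold changes between -0.28 and 0.36 there, and those of Mir-28-P1 between -1.84 and 0.51. Without WT replicate 2, Mir-28-P1_5p passed in the input of G604R, where it was at 0 (-1.96, adjusted p = 0.00231). Whether a difference in IP went beyond that in the input was tested as an interaction, and no arm passed. For Mir-28-P1_5p the interaction was 2.62 in F182del (SE 1.0, adjusted p = 0.244) and for Mir-28-P1_3p it was 0.74 in D619N (SE 0.52, adjusted p = 0.409). Interactions were called for 2.22% of 135 miRNAs in F182del, 0% of 127 in N359H (4 at an unadjusted p below 0.05), 3.08% of 130 in G604R and 5.51% of 127 in D619N.

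**Figure D4:**
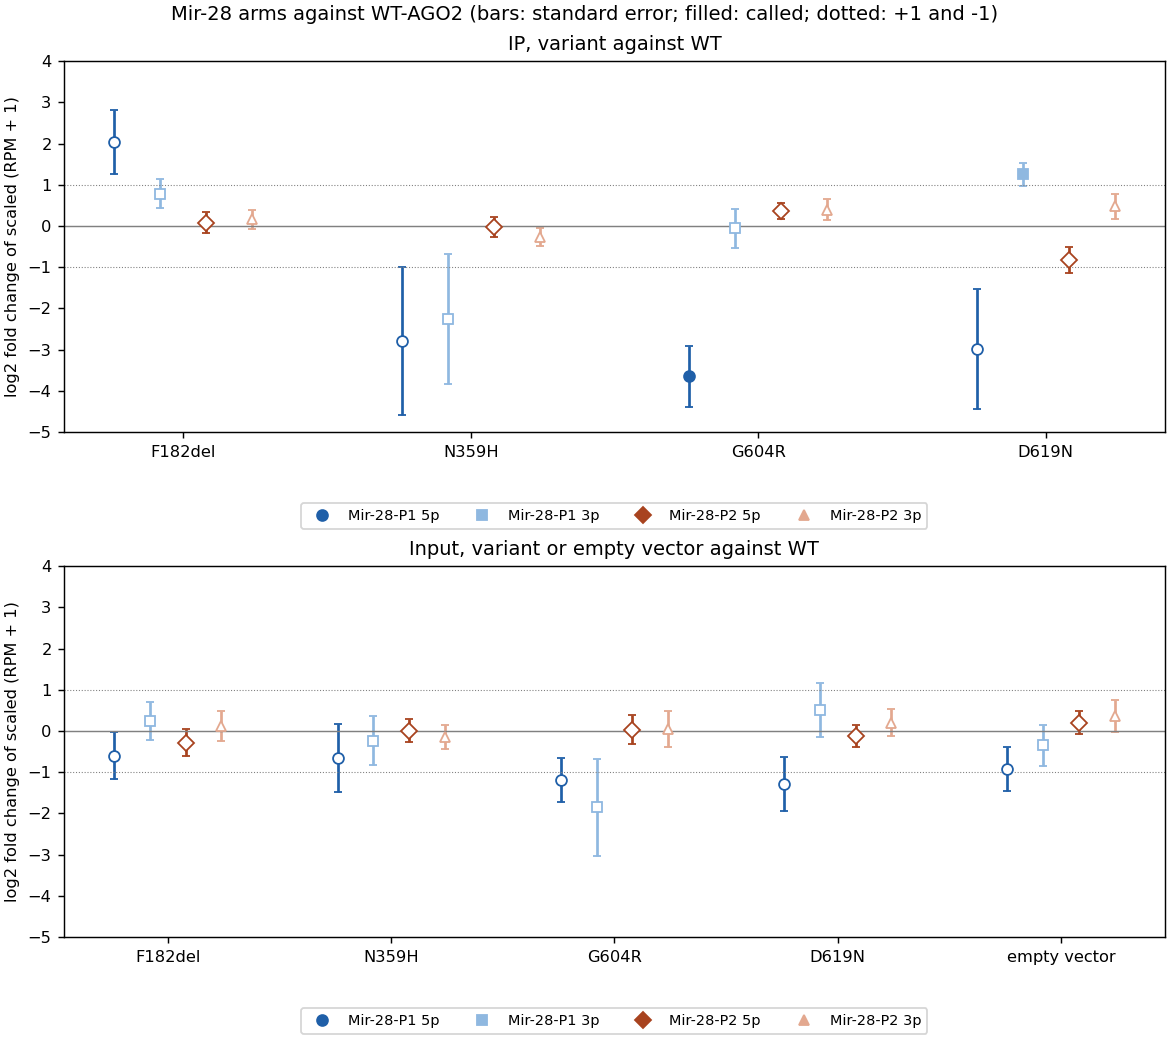
Log2 fold change against WT-AGO2 of each Mir-28 arm (vertical axis, log2 of scaled RPM + 1) with its standard error, in IP (upper panel) and input (lower panel), with filled symbols for calls and dotted lines at +1 and -1. Filled are Mir-28-P1_5p in G604R, whose libraries are all at 0, and Mir-28-P1_3p in D619N (1.25), both in IP.

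The comparison of IP with input shows which arms took a larger part of the miRNAs on tagged AGO2 than of the lysate. Mir-28-P1_3p was called in F182del and D619N, with positive log2 differences also in WT-AGO2 and G604R. In F182del it stood at 6217.5, 3099.8 and 4324 CPM in IP against 1609, 3269 and 1334 in the input (log2 difference 1.49, SE 0.45, adjusted p = 0.0206). The single overlap is that of replicate 2. The call was lost without IP replicate 1 (1.13, adjusted p = 0.226), IP replicate 3 (1.57, adjusted p = 0.068) or input replicate 3 (1.18, adjusted p = 0.0934). In D619N the inputs were at 2448, 2579 and 2445 CPM, below all IP libraries (log2 difference 1.75, SE 0.40, adjusted p = 0.0297). With the replicate block, which pairs the IP and input of a lysate, this call was lost (adjusted p = 0.0901). WT-AGO2 had a log2 difference of 1.01 (SE 0.41, adjusted p = 0.117), G604R of 3.67 (SE 1.48, adjusted p = 0.154), with 2 inputs at 0, and N359H of -0.64 (SE 1.27, adjusted p = 0.764). G604R passed without input replicate 3, the only input of this variant with reads of the arm (5.66, adjusted p = 0.0426), a value against inputs at 0.

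Mir-28-P1_5p was called in F182del, with a log2 difference of 3.30 (SE 0.97, adjusted p = 0.0183) that rests on inputs with 0, 2 and 0 reads, so that its size is set by the pseudocount. The arm passed the filter on low values through its IP libraries alone. In these inputs 3 reads correspond to 966, 545 and 801 CPM, against 930.4 CPM in the lowest IP library. The call was lost without IP replicate 1 (3.01, adjusted p = 0.0748). In WT-AGO2 the difference was 0.55 (SE 0.97, adjusted p = 0.668), and in the other variants the arm had too few reads to be tested. The Mir-28-P2 arms were called in no construct: Mir-28-P2_3p had differences of 0.26 to 1.03 and Mir-28-P2_5p of -0.58 to 0.49. In D619N, Mir-28-P2_3p passed without IP replicate 3 (1.32, adjusted p = 0.00457). The share of miRNAs called was 11.9% of 126 in WT-AGO2, 23.5% of 132 in F182del, 11.7% of 120 in N359H, 8.57% of 105 in G604R and 17.5% of 103 in D619N, against 0, 2, 0, 0 and 1 of the Mir-28 arms.

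**Figure D5:**
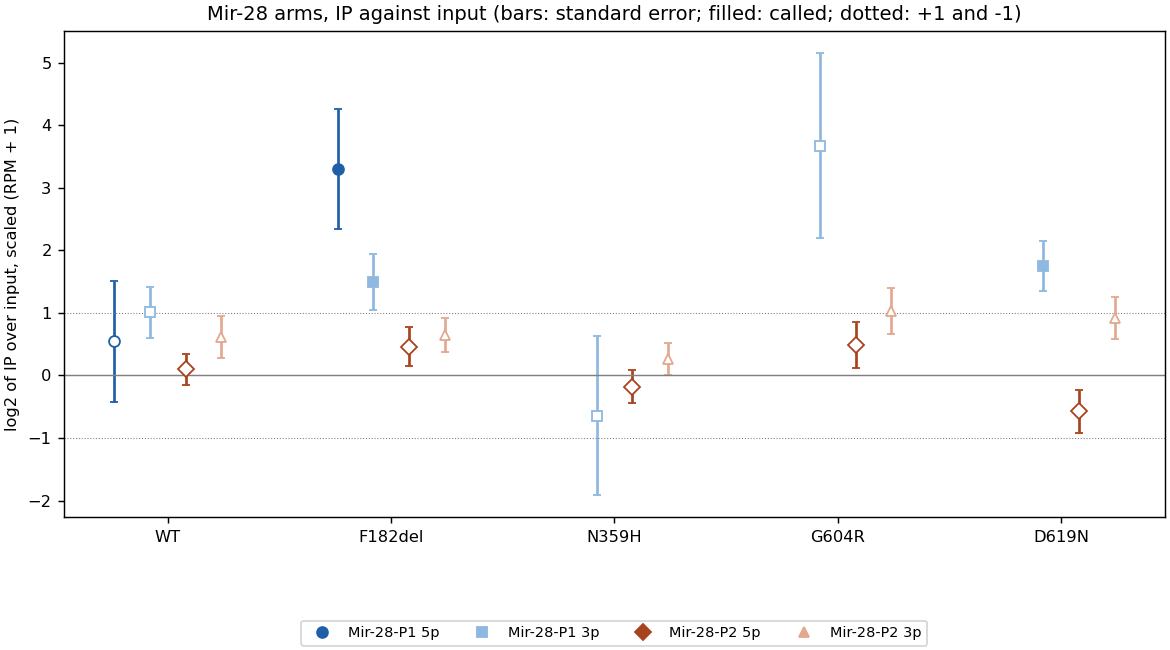
Log2 of IP over input of each Mir-28 arm (vertical axis, scaled RPM + 1) with its standard error for WT-AGO2 and the 4 variants, with filled symbols for calls and dotted lines at +1 and -1. Mir-28-P1_3p lies between 1.01 and 3.67 in all constructs except N359H (-0.64), and Mir-28-P1_5p is shown only where it was tested.

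Of 23 hairpins with both arms listed, 5 have no asterisk on either arm, of which 3 are outside the Mir-28 family (Mir-130-P4a, Mir-17-P1d and Mir-423). Their mean 5p shares in IP of WT-AGO2 were 47.7% ± 4.40, 70.6% ± 29.8 and 55.1% ± 5.01 (SD, n = 3), so that Mir-28-P1, at 11.5%, was the most uneven of the 5. In IP of D619N these shares were 11.3% ± 10.2, 66.7% ± 57.7 and 91.9% ± 8.61, the middle value from 11 reads, so that shares of single hairpins lay on either side of WT-AGO2 in this variant.

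The miRNAs most like each arm over the 15 IP libraries of the 5 AGO2 groups were named by Pearson's r of log2(scaled RPM + 1) among 75 miRNAs outside the family, as a description. The libraries of a group share their construct, and all values share the scaling. Mir-28-P1_3p was most like Mir-30-P1b_5p (r = 0.877) and Mir-181-P1a_3p* (r = 0.855). Its only library at 0 was replicate 3 of N359H, with 1150 mature miRNA reads in all. Such a value can weigh heavily in each r of this arm, and r was not computed without it. Mir-28-P2_5p was most like Mir-221-P1a_5p* (r = 0.871) and Mir-221-P2a_3p (r = 0.852), while for Mir-28-P2_3p the highest values were 0.534 (Mir-92-P2d_3p) and 0.488 (Mir-192-P2_5p). Within the family r was 0.336 between both 3p arms, -0.09 between Mir-28-P1_3p and Mir-28-P2_5p, and -0.15 between the arms of Mir-28-P2. Mir-28-P1_5p was above 0 in too few libraries to be compared.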

How the data were processed

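Small RNA libraries of input and anti-HA IP were made with the TruSeq kit and sequenced as 36 bp single-end reads. The authors processed them with sRNAbench and MirGeneDB 2.1 and deposited RPM, relative to all reads of a library, for 135 mature miRNAs. The build is GRCh38 per the labels, and the terms minExpr1 and RCadj of the deposited table are not explained. No count model was fitted to these values.

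From the RPM, reads, CPM and 5p shares with 95% Wilson intervals were computed (Python 3.11.15, statsmodels 0.14.6), and groups were compared by exact permutation tests (scipy 1.17.1). The permutation tests did not pair the IP and input of a lysate. Levels and arm ratios were tested across all miRNAs or hairpins with limma 3.58.1 in R 4.3.3, with Benjamini-Hochberg adjustment over the whole table. Levels were log2(RPM + 1) after median-of-ratios scaling, for miRNAs that reached 1 RPM after scaling in 2 or more libraries of either group. Against WT-AGO2, Mir-28-P1_5p did so through WT-AGO2 alone in IP of N359H, G604R and D619N and in the inputs. For low miRNAs a fold change on this scale depends on the pseudocount. With libraries at 0 it can overstate or understate the change. Arm ratios used CPM plus 1, for hairpins with each arm above 1 CPM in at least 2 libraries of a group. The fits were checked on simulated data, with recovery required only at a read depth far above that of these libraries. This check does not cover arms with few reads. All Mir-28 arms are named, and of other miRNAs the 2 most like each arm above 0 in at least 12 of 15 IP libraries. The members, lists and tests were chosen with earlier results of these data known.

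By the methods of the study, the IP of a replicate was made from the same lysate as its input, and between IP and input the replicate block pairs them. In comparisons of a variant or the empty vector with WT-AGO2, the block matches libraries by replicate number only, and these share no lysate. Same-numbered libraries deviated together with correlations above 0.1 in all 3 pairs only for the inputs of G604R and WT-AGO2 (0.198, 0.231 and 0.285). Alternatives were other pseudocounts, no filter, RPM as deposited, the replicate block, a common fit of the 5 AGO2 groups, summed reads, and fits without each library.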

Additional observations from a re-analysis of the deposited data

Results flagged for a closer look

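The mean 5p share of Mir-28-P1 in IP differed from that of WT-AGO2 by 13.7 percentage points in F182del, by -11.5 points in G604R and by -9.81 points in D619N, and as listed the libraries of F182del lay on the other side of WT-AGO2 than those of G604R and D619N. Shares apart from WT-AGO2 in all libraries were found for 27.3%, 22.7% and 47.6% of the hairpins compared in these variants. The difference between the variants was not tested. The 2 lower values rest on few reads: 0 of 24 reads in G604R allow a share of up to 12.5%, and the interval of D619N over summed reads (0.765% to 9.57%, 72 reads) overlaps that of WT-AGO2 (5.36% to 15.4%, 130 reads), so that a share as in WT-AGO2 could not be told apart at this depth.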

How the results depend on the processing

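With RPM as deposited in place of scaled RPM, 4, 4, 2, 1 and 0 Mir-28 arms were called in IP against input of WT-AGO2, F182del, N359H, G604R and D619N, and Mir-28-P2_5p of N359H turned from -0.18 to 3.34. The median of all miRNAs lay at 1.94 to 3.74 in these comparisons, against -0.31 to 0.48 after scaling. Over all alternatives, up to 100, 92, 49, 27 and 21 miRNAs were called in them, against 15, 31, 14, 9 and 18 in the fit reported. The counts of arms were not compared with the share of all miRNAs called under this setting, and are not read as particular to the family. In IP against WT-AGO2, the number of arms called fell from 1 to 0 for G604R with a pseudocount of 10 RPM, RPM as deposited, the replicate block or a common fit of 5 groups, and for D619N with RPM as deposited or the common fit. The replicate block also took the call of D619N between IP and input (from 1 to 0 arms), and changed no other call of an arm. Leaving out a library gave 0 to 1 arms for G604R and for D619N in IP, 0 to 1 for the input of G604R, and 0 to 2, 0 to 1 and 1 to 2 for IP against input of F182del, G604R and D619N. The arm ratio of Mir-28-P1 in IP of G604R lost its call with pseudocounts of 100 CPM (-2.20) and 0.5 reads (-1.16). With a library left out, it ranged from -9.64 to -5.25 in IP of D619N, from -10.1 to -6.80 in the input of D619N and from 5.09 to 8.83 between IP and input of F182del. The share difference of N359H ranged from -11.5 to 1.86 points. On CPM of mature reads, with zeros taken as listed, 2 of the 4 arms lay above all libraries of the empty vector, but under its detection limit of 14852 CPM or more. Over all miRNAs, the calls ranged over the alternatives from 2 to 10 for F182del (8 in the fit reported), 0 to 3 for N359H (0), 0 to 14 for G604R (6) and 0 to 29 for D619N (18) in IP, and from 0 to at most 11 in the inputs (0). The ranges were 1 to 100 (15), 15 to 92 (31), 3 to 49 (14), 0 to 27 (9) and 2 to 21 (18) for IP against input of WT-AGO2, F182del, N359H, G604R and D619N, and 3 to 8 (3), 0 to 2 (0), 3 to 10 (4) and 1 to 17 (7) for the interactions of the 4 variants. The causes of these changes were not tested. Depth limits above all Mir-28-P1_5p, for which the WT level lies under the detection limit in IP of G604R.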
